A study of Mus musculus with 2 samples.

Results

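*Rgs5*, *Abcc9*, *Kcnj8*, *Notch3*, *Cspg4*, *Higd1b*, *Ndufa4l2* and *Gm13889* are 8 genes used to mark pericytes, out of the 31053 genes counted in 2 scRNA-seq libraries of the mouse intestine. The genes were chosen by their detection in these libraries and as markers of pericytes, so their levels are described without a test. Cells were the barcodes with at least 1000 unique molecular identifiers (UMIs, each standing for 1 captured RNA molecule) and at most 20% mitochondrial UMIs, 16190 in all. Of these cells, 6222 held a UMI of at least 1 of the 8 genes, 1120 held at least 3 of them and 115 held at least 6.

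The libraries came from lamina propria of C57BL/6 mice aged 11 weeks per the labels, although the study's text also gives a younger age. The *ApcMin* library was made from *ApcMin/+* mice with wild-type *Lef1*, and the *VApcMinL* library from *ApcMin/+* mice with *Lef1* fl/fl and Villin-Cre, so both genotypes carried the *ApcMin* allele. Villin-Cre acts in the intestinal epithelium, and the cells had been sorted as Epcam-, CD45-, Ter119- and DAPI-, so the deletion was not aimed at the cells measured here. Each genotype had 1 library, and the number of mice in it is not given in the sources used here.

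Pericytes are mural cells that sit on the capillary endothelium inside its basement membrane. They answer to PDGF-B from endothelial cells through the receptor PDGFRB, and they share many genes with the smooth muscle cells of larger vessels. Gentle dissociation can leave a pericyte attached to an endothelial cell, and such a pair is read as a single barcode that holds the RNA of both.

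The *ApcMin* library had 7593 cells with a median of 9663 UMIs and the *VApcMinL* library 8597 cells with a median of 6792. The cells held 85.6% and 78.2% of the UMIs of their libraries. The limit on mitochondrial RNA left out 251 and 996 barcodes. *Lef1* had 126 and 122 UMIs over all cells, which does not check the labels because the deletion is epithelial. Although the sort was against CD45 and Ter119, clusters led by immunoglobulin, haemoglobin and mast cell genes were present in both libraries. Epithelial cells were left in the sort too. At the study's clustering resolution of 0.2, a cluster led by *Reg3g*, *Reg3b* and *Sis* held 79 *ApcMin* and 390 *VApcMinL* cells. One led by the pancreatic genes *Ctrb1* and *Prss2* held 38 and 31. *Lef1* was not counted apart in the epithelial cells. Among the cells, 24 barcodes occurred in both libraries, and 6 of these held at least 3 of the genes. Without the 24, the cells with at least 6 genes numbered 41 and 73 instead of 42 and 73. Apart from those on ratios of median UMIs, the intervals given are exact, at 95%, and include no error but that of counting. As each genotype had a single library, no difference between the genotypes can be told apart from one between mice, dissections or sorts.

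The genes lie on 7 chromosomes of GRCm38 (GENCODE vM21). *Kcnj8*, which encodes the pore Kir6.1 of an ATP-sensitive potassium (KATP) channel, lies on chromosome 6 from 142564837 to 142571614. *Abcc9*, which encodes SUR2, the regulatory subunit of the same channel, lies on the same strand of chromosome 6 from 142587862 to 142702315. Only 16247 bases separate the pair, with 0 genes between them. *Rgs5*, a GTPase activator that shortens signalling by G protein-coupled receptors, lies on chromosome 1 from 169655501 to 169695813. *Notch3*, the Notch receptor of mural cells, lies on chromosome 17 from 32120820 to 32166852, and *Cspg4*, the proteoglycan NG2, on chromosome 9 from 56865033 to 56899870. *Higd1b*, of a family of hypoxia-inducible mitochondrial proteins, lies on chromosome 11 from 102835849 to 102838040, and *Ndufa4l2*, a hypoxia-induced relative of the cytochrome oxidase subunit gene *Ndufa4*, on chromosome 10 from 127514967 to 127517154. *Gm13889*, a protein-coding gene of chromosome 2 from 93955810 to 93957201, overlaps *Gm27027* on the same strand, so its reads could be split between both and its values are uncertain. *Abcc9*, *Notch3* and *Ndufa4l2* overlap a gene on the other strand.

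Promoters are shown for 4 of the genes, because the genes were detected together. Each is the RefSeq window from 250 bases before to 50 bases after the start on GRCm38.p6, in the direction of transcription. It lies at chr6:142702225-142702524 for *Abcc9*, chr6:142571565-142571864 for *Kcnj8*, chr17:32166841-32167140 for *Notch3* (these on the minus strand) and chr1:169655251-169655550 for *Rgs5* on the plus strand. Capitals mark the core of the site of RBPJ, the DNA-binding partner of Notch receptors (TGGGAA), and the core of the hypoxia response element (ACGTG), on either strand. The letters of these motifs do not overlap.
Abcc9: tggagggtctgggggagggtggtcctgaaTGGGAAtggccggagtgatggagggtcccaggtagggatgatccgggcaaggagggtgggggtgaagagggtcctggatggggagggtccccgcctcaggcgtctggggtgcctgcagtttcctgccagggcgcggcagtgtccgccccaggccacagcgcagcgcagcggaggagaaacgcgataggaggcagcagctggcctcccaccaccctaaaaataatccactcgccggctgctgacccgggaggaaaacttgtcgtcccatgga
Kcnj8: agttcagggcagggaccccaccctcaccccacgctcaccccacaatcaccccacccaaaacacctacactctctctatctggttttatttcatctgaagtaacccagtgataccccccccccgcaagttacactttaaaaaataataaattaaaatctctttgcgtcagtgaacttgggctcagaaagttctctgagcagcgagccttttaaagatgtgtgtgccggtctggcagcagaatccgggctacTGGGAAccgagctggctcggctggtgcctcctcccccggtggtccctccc
Notch3: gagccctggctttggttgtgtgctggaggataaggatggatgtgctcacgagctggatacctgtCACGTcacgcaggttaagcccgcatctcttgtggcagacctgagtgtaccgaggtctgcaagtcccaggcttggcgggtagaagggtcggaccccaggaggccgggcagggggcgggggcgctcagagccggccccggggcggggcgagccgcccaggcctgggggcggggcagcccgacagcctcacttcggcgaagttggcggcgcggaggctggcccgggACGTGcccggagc
Rgs5: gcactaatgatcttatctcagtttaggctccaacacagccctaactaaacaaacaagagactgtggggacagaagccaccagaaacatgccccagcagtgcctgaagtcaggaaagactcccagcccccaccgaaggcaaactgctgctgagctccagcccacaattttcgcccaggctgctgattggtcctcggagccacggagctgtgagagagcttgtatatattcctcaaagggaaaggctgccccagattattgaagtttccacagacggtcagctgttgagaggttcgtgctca
The RBPJ core was present in the windows of *Abcc9* and *Kcnj8*, 2 of the 5 marker genes with a window, and in 25.6% of all 32851 windows. The hypoxia core was present in that of *Notch3* alone among the 5, and in 19.6% of all windows. *Rgs5* and *Cspg4* had neither. These are matches of letters and not sites of binding.

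The cells were clustered without using the 8 genes, and this gave 17 clusters at the study's resolution of 0.2 and 28 at a resolution of 1.0. At 0.2, cells led by contractile genes shared a cluster with cells led by *Wif1*. At 1.0 they separated, and the finer clusters are used below. At 1.0, each of the 8 genes had its highest level in the same cluster of 171 cells (53 *ApcMin* and 118 *VApcMinL*), which was led by the smooth muscle genes *Myh11*, *Actg2*, *Acta2*, *Tagln* and *Cnn1* and is called the muscle-marker cluster. At 0.2, *Rgs5* (2625 CPM, that is, UMIs per 1000000 UMIs), *Abcc9* (607 CPM) and *Kcnj8* (236 CPM) were highest in another cluster, led by *Scg2*, and the other 5 genes in the cluster with the contractile and *Wif1* cells. In the muscle-marker cluster, 12 of 15 further pericyte markers and 10 of 12 smooth muscle markers were found in at least 25% of cells.

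**Figure D1:**
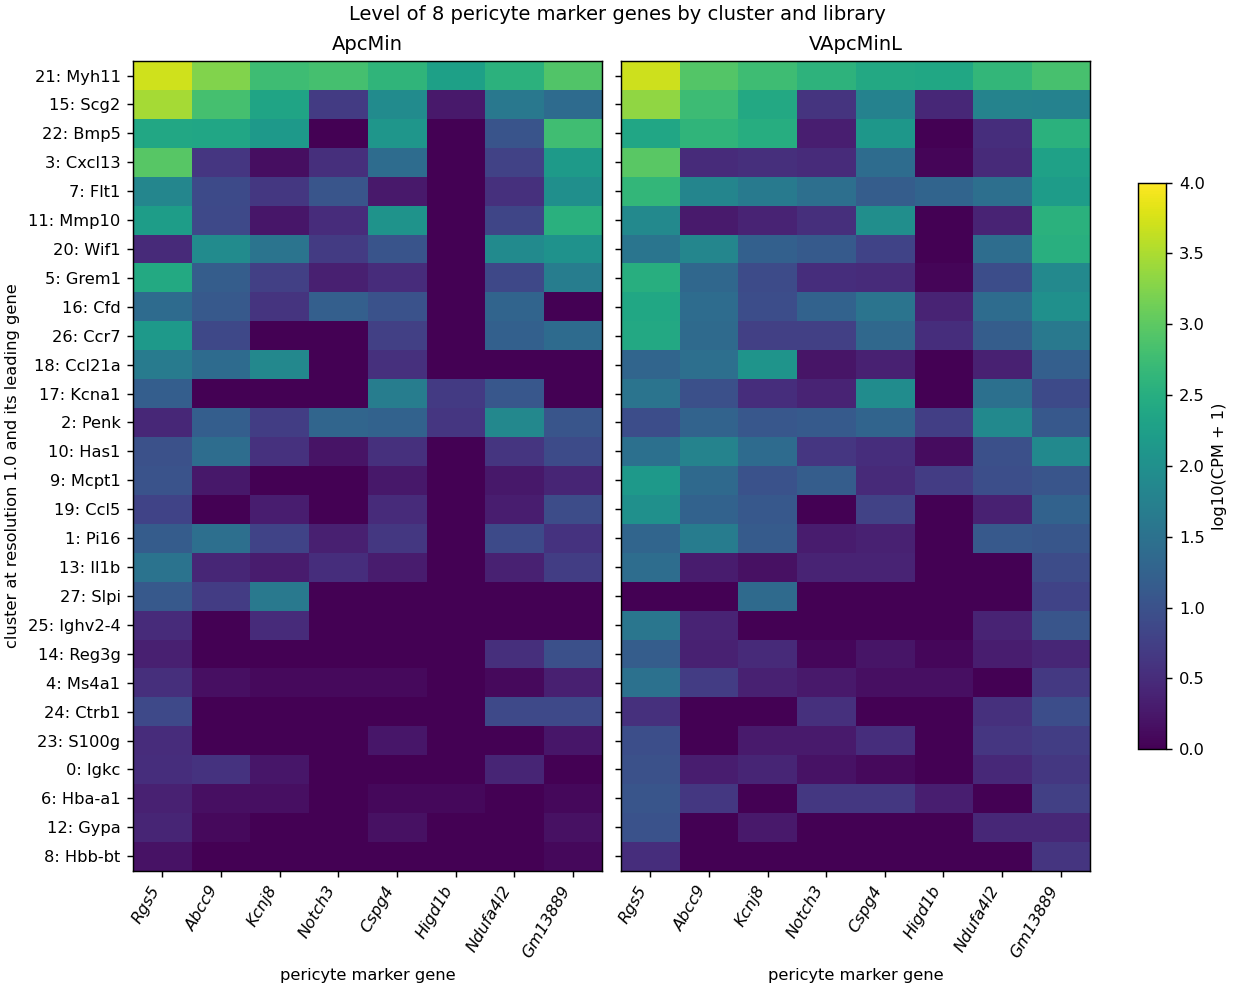
Level of the 8 genes (columns) in the 28 clusters (rows, each with its leading gene), as log10(CPM + 1), for *ApcMin* (left) and *VApcMinL* (right). The top row, the muscle-marker cluster, holds the highest level of each gene over both libraries, from 186 and 237 CPM for *Higd1b* to 5222 and 4945 CPM for *Rgs5*.

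The plot of levels by cluster shows that the genes differed in how far they were confined to the muscle-marker cluster. *Notch3* stood at 471 CPM there and at 23.6 CPM in the next cluster, a 19.9-fold difference. *Higd1b* stood at 221 against 14.4 CPM (15.3-fold), and *Ndufa4l2* at 423 against 75.2 CPM (5.62-fold). For the other 5 genes the difference was smaller. *Cspg4* was 2.46-fold, *Kcnj8* 2.21-fold, *Rgs5* 1.92-fold, *Abcc9* 1.91-fold and *Gm13889* 1.69-fold above its next cluster.

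*Rgs5* lay mostly outside the muscle-marker cluster. Only 11.6% of its 35986 UMIs lay in the muscle-marker cluster, where 83.6% of cells held it. A cluster of 1310 cells led by *Cxcl13*, *Ereg* and *Adamdec1*, with all 8 fibroblast markers in at least 25% of its cells, held 34.3% of the *Rgs5* UMIs at 927 CPM, and 87.5% of its cells had at least 1. This cluster was larger in *VApcMinL* (893 cells) than in *ApcMin* (417 cells), but the level of *Rgs5* within it was 908 CPM in *ApcMin* and 939 CPM in *VApcMinL*. A further 13.2% of *Rgs5* UMIs lay in a cluster led by *Grem1*, a BMP antagonist of the crypt stroma, at 295 CPM.

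A smaller cluster of 314 cells (165 *ApcMin* and 149 *VApcMinL*), led by *Scg2*, *Thbs2* and *Fibin* and called the *Scg2* cluster, held the KATP channel pair. There *Rgs5* stood at 2617 CPM, *Abcc9* at 605 CPM and *Kcnj8* at 235 CPM. The cluster contained 39.5% of all *Abcc9* UMIs and 33.9% of all *Kcnj8* UMIs, more than the muscle-marker cluster with 15.7% and 17.1%. *Notch3* (3.50 CPM) and *Higd1b* (1.26 CPM) were nearly missing from it. All 8 fibroblast markers were found in at least 25% of these cells, including *Pdgfra*, the PDGF receptor of fibroblasts. *Gucy1a1* and *Gucy1b1*, the subunits of soluble guanylate cyclase, which were on the pericyte list, stood at 1501 and 838 CPM in the cells of the cluster with at most 5 of the genes.

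Other clusters held some of the genes without the rest. *Cspg4* and *Gm13889* stood at 98.7 and 351 CPM in a cluster led by *Mmp10*, *Fgfr2* and *Col6a5*, which held 20.8% and 18.9% of their UMIs. *Kcnj8* stood at 108 CPM in lymphatic endothelium-like cells (led by *Ccl21a*, *Mmrn1* and *Lyve1*), where *Abcc9* was at 27.4 CPM and *Rgs5* at 24.7 CPM. A cluster of 115 cells led by *Bmp5* and *Bmp7* held *Abcc9* at 352, *Kcnj8* at 257, *Cspg4* at 127 and *Gm13889* at 428 CPM, with *Notch3* at 0.808 CPM. *Ndufa4l2* had 49.6% of its UMIs, at 75.2 CPM, in a cluster led by *Penk*, *Plau* and *Alkal2* with all 8 fibroblast markers, and 27.9% of *Notch3* UMIs lay in the same cluster at 16.4 CPM.

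Free RNA gives a low share of cells with a UMI in cells that do not express a gene. In 1591 cells of the cluster led by *Igkc*, *Iglc1* and *Igha*, which had a median of 3733 UMIs, *Rgs5* was found in 2.45% of cells and each of the other 7 genes in 0 to 0.817%. In the muscle-marker cluster, with a similar median of 3747 UMIs, the shares were far above these. In the empty droplets *Rgs5* made up 160 CPM in *ApcMin* and 144 CPM in *VApcMinL*, against 198 and 254 CPM over all cells. *Higd1b*, with only 13 and 12 UMIs there, stood at 3.6 and 2.33 CPM in the empty droplets against 1.12 and 3.15 CPM over all cells.

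Cells with few and with many of the marker genes belonged to different cell classes. Among cells with 3 of the 8 genes, *Pdgfra* was found in 97.1% of 275 *ApcMin* cells and 90.6% of 371 *VApcMinL* cells. Among cells with 7 genes it was found in 10.0% of 10 and 10.3% of 29 cells, and among cells with all 8 genes in 0 of 13 and 0 of 18 cells, which allows shares of up to 24.7% and 18.5%. *Cox4i2*, a cytochrome oxidase subunit gene that is typical of pericytes and was not among the 8, went the other way. It was found in 3.64% and 2.70% of cells with 3 genes, and in 76.9% and 100% of those with all 8. The median depth was 12165 UMIs at 3 genes, 4014 at 7 and 6107 at 8.

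**Figure D2:**
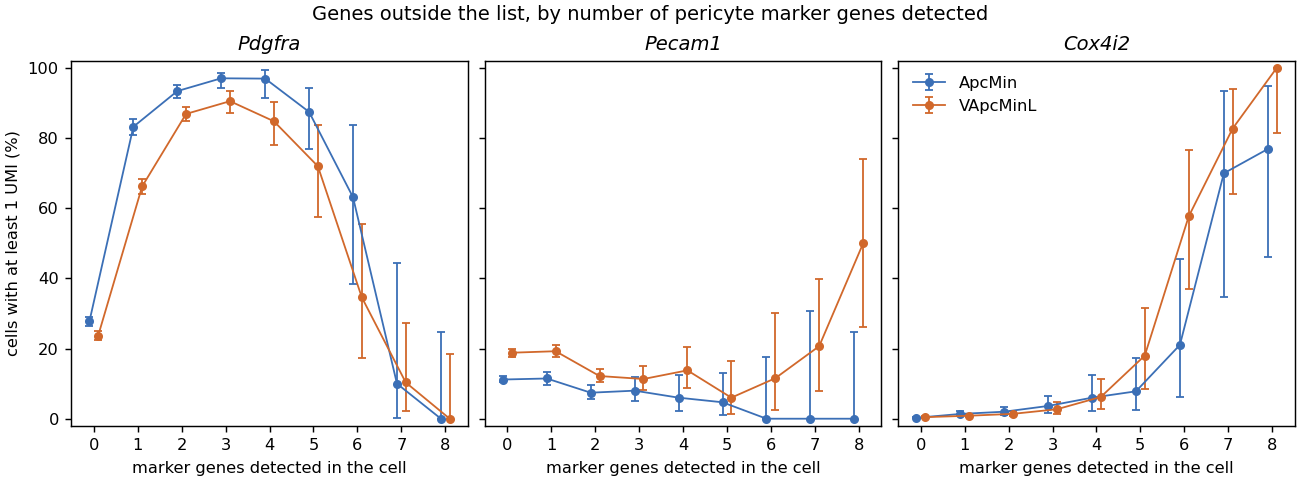
Percent of cells with a UMI of *Pdgfra* (fibroblasts), *Pecam1* (endothelium) and *Cox4i2* (pericytes) against the number of the 8 genes detected in the cell, in *ApcMin* (blue) and *VApcMinL* (orange), with exact 95% intervals. *Pdgfra* peaks at 97.1% and 90.6% with 3 genes and is at 0 with all 8, and *Cox4i2* reaches 76.9% and 100%.

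The plot against the number of genes detected shows that at least 3 of the genes, the first limit used, marked more cells with *Pdgfra* than pericytes. Of the 1120 cells with at least 3 genes, 254 (22.7%) lay in the *Scg2* cluster, 192 (17.1%) in the cluster led by *Cxcl13* and *Ereg*, 138 (12.3%) in that led by *Penk* and only 124 (11.1%) in the muscle-marker cluster. Over all of them *Pdgfra* was found in 90.0% of *ApcMin* and 79.3% of *VApcMinL* cells. Of genes outside the list, *Igfbp7* differed most between these cells and the rest when each cell was thinned to 1000 UMIs, with 89.1% against 45.6% of cells, and the matrix genes *Bgn*, *Sparc*, *Dcn*, *Col3a1* and *Col1a2* were among the first 15. A limit of at least 6 genes was added after the data had been seen. It left 74 cells in the muscle-marker cluster (30 *ApcMin* and 44 *VApcMinL*), 18 in a blood endothelium-like cluster of 895 cells (led by *Flt1*, *Plvap* and *Ptprb*, with 11 of 12 endothelial markers in at least 25% of cells), 13 in the *Scg2* cluster and 10 elsewhere.

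By this limit *Higd1b* was the gene most confined, with 77.9% of its 339 UMIs in the 115 cells and a level of 275 CPM there against 0.474 CPM in all other cells. *Notch3* followed with 39.8% of its 993 UMIs, at 412 against 3.78 CPM. *Kcnj8* had 24.6% of its UMIs in these cells, *Abcc9* 22.2%, *Ndufa4l2* 17.0%, *Rgs5* 15.2%, *Cspg4* 12.1% and *Gm13889* 6.43%. These cells were picked by the same genes, so the values are a description.

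In the 74 cells of the muscle-marker cluster with at least 6 genes, *Rgs5* was found in 100%, *Abcc9* in 98.6%, *Kcnj8* and *Notch3* in 91.9% each, *Ndufa4l2* in 85.1%, *Cspg4* in 83.8%, *Higd1b* in 78.4% and *Gm13889* in 70.3%. The rest of the pericyte list had no part in the limit of 6 genes, but it was not left out of the clustering. Of this list, 2 genes, *Rgs4* and *Des*, were among the leading genes of the cluster. All 15 of its 15 genes reached 25% of these cells, none was at 0, and their summed level was 9456 CPM. *Pdgfrb*, the receptor of PDGF-B, had a UMI in all 74 cells at 1309 CPM. *Gucy1a1* was found in 93.2%, *Rgs4*, a regulator of the same family as *Rgs5*, in 86.5%, *Vtn*, which encodes vitronectin, in 85.1%, and *Cox4i2* and *Art3* in 75.7% each. In the 50 cells of the cluster with 3 to 5 genes, 11 of the 15 reached 25% of cells and the sum was 4157 CPM, and in the 47 cells with 0 to 2 genes 3 did, at 1505 CPM, with 7 at 0.

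Contractile RNA was lowest in the cells of the cluster with at least 6 marker genes, and did not fall from 0 to 2 genes to 3 to 5. *Acta2*, smooth muscle actin, stood at 429 CPM in the cells with at least 6 marker genes, at 9946 CPM in those with 3 to 5 and at 9219 CPM in those with 0 to 2. *Myh11*, smooth muscle myosin, stood at 458, 5381 and 3209 CPM. *Cnn1*, calponin, had 0 UMIs in the 74 cells and 940 and 1082 CPM in the other sets. Over the smooth muscle list, 6 of 12 genes reached 25% of the 74 cells and 3 were at 0, with a summed level of 3417 CPM against 38188 and 35697 CPM. *Des*, desmin, was highest in the middle set, at 409, 2071 and 1002 CPM. The cells with the most marker genes were those with the least actin and myosin RNA of the cluster. The sets had median depths of 3787, 4815 and 2153 UMIs in the same order.

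Lists around single members were read in the same 74 cells. Of the KATP channel subunits, *Kcnj8* and *Abcc9* were present, and their counterparts of other tissues had next to no RNA, with 0 UMIs of *Kcnj11*, which encodes Kir6.2, and 1 UMI of *Abcc8*, which encodes SUR1. Of the Notch receptors, *Notch1* stood at 208 CPM beside *Notch3* at 890 CPM, and *Notch2* and *Notch4* were low at 29.2 and 9.74 CPM. Of the ligands, *Jag1* was found in 66.2% of cells at 289 CPM and *Dll4* in 9.46%. Of the targets, *Heyl* was found in 37.8% and *Hey2* in 23.0%. *Ndufa4* and *Higd1a*, the widely expressed relatives of *Ndufa4l2* and *Higd1b*, were found in 9.46% and 17.6% of cells, at 39.0 and 48.7 CPM, whereas in the actin-rich cells with 3 to 5 marker genes they stood at 608 and 293 CPM. *Pdgfb*, the ligand, had 4 UMIs in the 74 cells and stood at 212 CPM in the endothelial cells with 0 of the genes.

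Co-detection of the genes in single cells was above the product of their shares for all 28 pairs, in full cells and in cells thinned to 1000 UMIs. *Rgs5* and *Abcc9* were found together in 607 cells. In *ApcMin*, 248 of 1051 cells with *Rgs5* (23.6%) held *Abcc9*, and in *VApcMinL* 359 of 2024 (17.7%), against 6.36% of the cells without *Rgs5* over both libraries. *Kcnj8* and *Abcc9*, the neighbours on chromosome 6, shared 640 cells, which is 68.1% of the cells with *Kcnj8* and 44.4% of those with *Abcc9*. The highest ratio was that of *Notch3* and *Higd1b*, seen together in 86 cells, 18.1 times the product of their shares. The lowest was that of *Rgs5* and *Ndufa4l2*, in 315 cells, at 1.22 times. Both libraries and all cell classes enter these ratios, so they follow the classes described above.

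**Figure D3:**
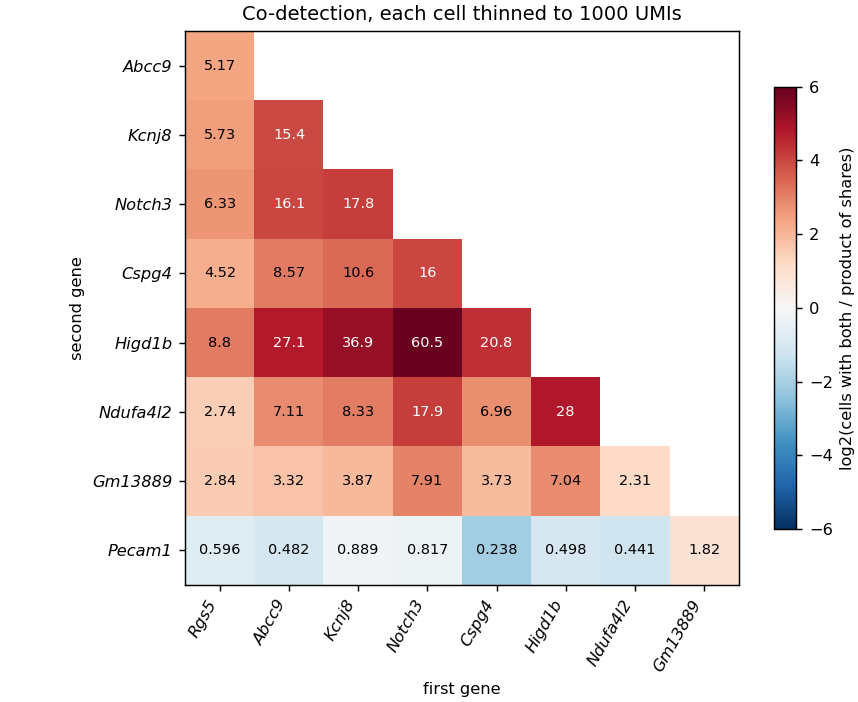
Cells with both genes of a pair over the number given by the product of their shares, pooled over both libraries with each cell thinned to 1000 UMIs (printed values), coloured on a log2 scale. The 28 pairs of the 8 genes lie between 2.31 and 60.5, and the bottom row, *Pecam1*, lies below 1 except with *Gm13889* at 1.82.

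*Pecam1*, the adhesion molecule CD31 of endothelial cells, was used to ask whether the genes lay in pericytes or in barcodes that also hold an endothelial cell. In the thinned cells of both libraries pooled, it was below the product of shares with 7 of the 8 genes, as the plot of co-detection shows. Its ratio was lowest with *Cspg4* (0.238) and stood above 1 only with *Gm13889* (1.82), which was at 145 CPM in the endothelial cluster and found in 76.7% of the endothelial cells with 1 to 5 of the genes. By library, the ratio with *Gm13889* was 0.859 in *ApcMin* (5 cells with both) and 1.65 in *VApcMinL* (69 cells). In unthinned cells 3 of the 8 pairs were above 1, *Kcnj8* at 1.28, *Gm13889* at 1.21 and *Higd1b* at 1.06. Of these, *Kcnj8* (1.08 in *ApcMin* and 1.27 in *VApcMinL*) and *Gm13889* (1.02 and 1.17) were above 1 in each library. *Higd1b* was with *Pecam1* in 0 of 60 *ApcMin* cells and in 23 of 92 *VApcMinL* cells (1.43).

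Among cells with at least 3 genes, *Pecam1* was found in 31 of 481 *ApcMin* cells, or 6.44%, and in 83 of 639 *VApcMinL* cells, or 13.0%. These shares lay below those over all cells, 10.6% and 17.5%. A stricter sign of endothelial RNA, at least 4 of 12 blood endothelial markers, was met by 9 cells (1.87%, 0.859% to 3.52%) and 52 cells (8.14%, 6.14% to 10.5%). Cells with this sign had a median of 1.28 times (0.385 to 1.82) the UMIs of those without it in *ApcMin* and 1.25 times (0.951 to 1.62) in *VApcMinL*. Both intervals hold 1. The ratio was 1.01 and 0.988 in cells with at least 2 genes and 0.774 in *ApcMin* with at least 4.

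At 6 genes and more the cells with and without *Pecam1* lay in different clusters. *Pecam1* and the other endothelial markers were not left out of the clustering, so they could set this split. It therefore does not decide between pericytes and barcodes that hold 2 cells. In the muscle-marker cluster 0 of 74 cells had a *Pecam1* UMI, which allows a share of up to 4.86%, and they held 0 to 4 of the 12 endothelial markers with a median of 2. The *Pecam1* share over all cells was 14.3%, at a median of 8138 UMIs against 3787 in the 74 cells. In the *Scg2* cluster 0 of 13 had one, and all 13 held *Pdgfra*. In the blood endothelial cluster all 18 cells had *Pecam1* and 10 to 12 of the 12 markers, and they held *Rgs5*, *Notch3*, *Higd1b* and *Ndufa4l2* in every cell. Those 18 cells were all from *VApcMinL*. *Pecam1* was also found in 96.4% of the cells of this cluster with 1 to 5 of the genes and in 95.4% of those with 0. In the muscle-marker cluster, it was found in 0 of 14 *ApcMin* and 5 of 36 *VApcMinL* cells with 3 to 5 genes. Those 36 cells held 0 to 10 of the 12 markers.

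**Figure D4:**
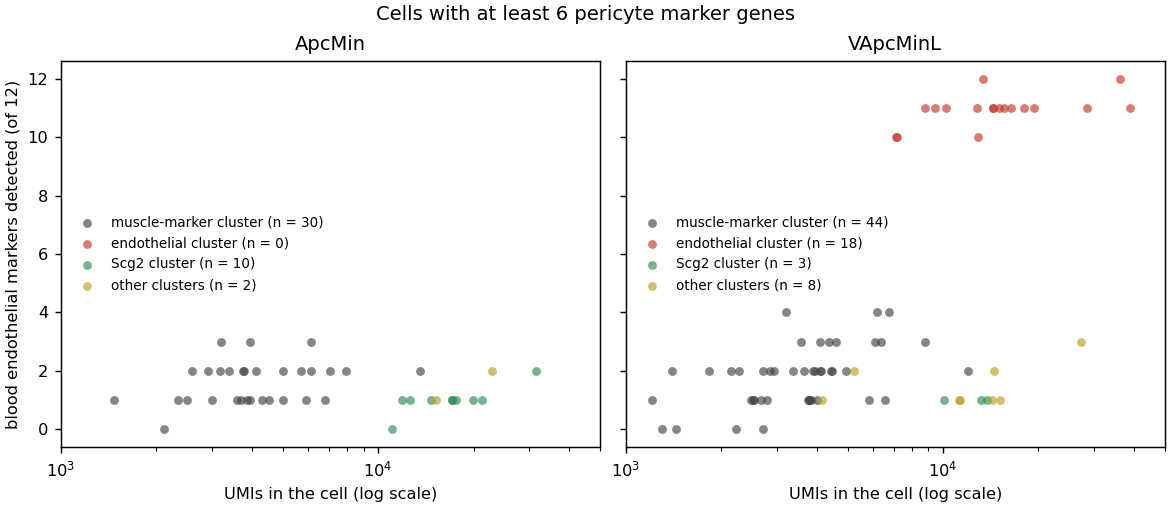
Each point is 1 of the 115 cells with at least 6 of the 8 genes, with its UMIs (log axis) against the number of 12 blood endothelial markers detected, by cluster (colours) and library (panels). The 18 cells of the endothelial cluster, all in *VApcMinL*, sit at 10 to 12 markers and 7105 to 38897 UMIs, apart from the 74 of the muscle-marker cluster at 0 to 4 markers.

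The plot of single cells shows the 18 endothelial cells as a separate group. They had a median of 14343.5 UMIs, 3.54 times that of the other cells of the endothelial cluster (4052 UMIs) and 3.79 times that of the 74 cells of the muscle-marker cluster (3787 UMIs). A limit of at least 6 genes itself favours deep barcodes. In the endothelial cluster the median was 3415 UMIs with 0 of the genes and 5356.5 with 1 to 5. The 8 genes together made up 6568 CPM in the 18 cells, 0.357 times the 18379 CPM of the 74 cells. The endothelial markers of the 18 cells stood at 0.978 times the level in the rest of the endothelial cluster. Of the rest of the pericyte list, 14 of 15 genes were found in at least 25% of them. Ranking by a doublet score marked 10 of the 18 (55.6%), against 6 of the 74 cells (8.11%) and 6.50% of all cells. It also marked 65 of the 301 *Scg2* cluster cells with 0 to 5 genes (21.6%) and 4 of the 10 cells with at least 6 genes outside the 3 clusters. The 18 cells were 2.01% of the endothelial cluster, and 0 of the 161 *ApcMin* endothelial cells were like them. The endothelial cluster itself was 8.54% of *VApcMinL* cells and 2.12% of *ApcMin* cells, a ratio of 4.03 (3.39 to 4.81), and the part of that ratio in the 18 cells was not tested.

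Between the libraries, cells with at least 3 genes made up 6.33% (5.80% to 6.91%) of *ApcMin* cells and 7.43% (6.89% to 8.01%) of *VApcMinL* cells, a ratio of 1.17 (1.04 to 1.32). Without the endothelial cluster, a choice made after the data had been seen, it was 1.12 (0.992 to 1.27). Cells with at least 6 genes made up 0.553% and 0.849%, a ratio of 1.54 (1.04 to 2.30). With the endothelial cluster left out, 42 and 55 cells remained and the ratio was 1.16 (0.760 to 1.77). In the muscle-marker cluster alone, the 30 and 44 cells were 0.395% and 0.512% of their libraries, a ratio of 1.30 (0.796 to 2.13). The whole muscle-marker cluster was 0.698% and 1.37%, a ratio of 1.97 (1.41 to 2.77), and its cells with 0 to 2 of the genes numbered 9 in *ApcMin* and 38 in *VApcMinL*. Once the endothelial cluster was set aside, the interval of the ratio for at least 6 genes held 1. These intervals cover counting error only, and with 1 library per genotype none of these ratios can be read as a genotype difference.

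Summed over all cells, each of the 8 genes was higher in *VApcMinL*, beside 69.3% of the 17791 genes with at least 20 UMIs. With at least 500 detected genes per cell 6 of the 8 were higher, with *Abcc9* at a ratio of 0.943 and *Ndufa4l2* at 0.949. Without the cells of highest doublet score 7 were (*Abcc9* at 0.984), and with a depth limit set at an order of magnitude below the deepest cells 7 were (*Ndufa4l2* at 0.985). *Higd1b* stood at 1.12 CPM in *ApcMin* and 3.15 CPM in *VApcMinL*, a ratio of 2.82 (2.21 to 3.64). *Gm13889*, at 18.5 and 45.6 CPM in the empty droplets, stood at 31.9 and 75.5 CPM, a ratio of 2.36 (2.26 to 2.48). These were the 2 genes past 2-fold, beside 17% of all genes tested. *Kcnj8* followed at 11.9 and 22.6 CPM (1.89, 1.75 to 2.05), *Cspg4* at 11.6 and 15.9 CPM (1.37), *Rgs5* at 198 and 254 CPM (1.28) and *Notch3* at 5.71 and 6.76 CPM (1.18). *Ndufa4l2* at 15.4 and 16.7 CPM (1.08, 0.999 to 1.17) and *Abcc9* at 36.8 and 39.4 CPM (1.07) were nearly level. The median log2 ratio was 0.41 over the 8 genes and 0.18 over all genes tested. In such sums, more cells of a class and more RNA per cell cannot be told apart.

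Within the cells with at least 3 genes, 5 of the 8 genes were higher in *VApcMinL*, beside 50.7% of all genes tested, and *Higd1b* alone was past 2-fold at 10.6 and 29.5 CPM, beside 10.3% of all genes tested. *Rgs5* stood at 1516 and 1275 CPM there, and *Abcc9* at 332 and 284 CPM, both lower in *VApcMinL*. Within the cells with at least 6 genes, 5 of the 8 were again higher in *VApcMinL*, beside 42.6% of all genes tested. There *Higd1b* (149 and 347 CPM, 2.32-fold) and *Ndufa4l2* (270 and 558 CPM, 2.07-fold) were past 2-fold, beside 19.5% of all genes tested. Both sets of cells were picked by the same 8 genes and not by the other genes tested, so these values are a description.

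The 74 cells of the muscle-marker cluster, none with *Pecam1*, were then compared by library. *Ndufa4l2* and *Higd1b* differed most. *Ndufa4l2* had 75 UMIs in 30 *ApcMin* cells, or 554 CPM (436 to 694), and 230 UMIs in 44 *VApcMinL* cells, or 1334 CPM (1167 to 1518), a ratio of 2.41 (1.85 to 3.17). *Higd1b* stood at 369 CPM (274 to 487) and 754 CPM (630 to 895), a ratio of 2.04 (1.46 to 2.89). Both exceeded 2-fold, as did 15.3% of the 2740 genes tested in these cells. The KATP channel pair went apart, with *Kcnj8* at 1071 and 1653 CPM (1.54, 1.26 to 1.90) and *Abcc9* at 3271 and 2366 CPM (0.723, 0.631 to 0.829). *Rgs5* was at 8994 and 10648 CPM (1.18, 1.10 to 1.27). The intervals of the ratio held 1 for *Notch3* (0.845, 0.662 to 1.08), *Cspg4* (0.903, 0.671 to 1.22) and *Gm13889* (0.869, 0.706 to 1.07). With that order-of-magnitude depth limit the ratio of *Abcc9* was 0.455 (0.328 to 0.623), and the intervals of *Kcnj8* (1.15, 0.756 to 1.74) and *Higd1b* (1.54, 0.769 to 3.07) held 1. In the 74 cells 4 of the 8 genes were higher in *VApcMinL*, beside 50.7% of all genes tested, and the median log2 ratio of the 8 was 0.05, against 0.01 over all genes tested.

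**Figure D5:**
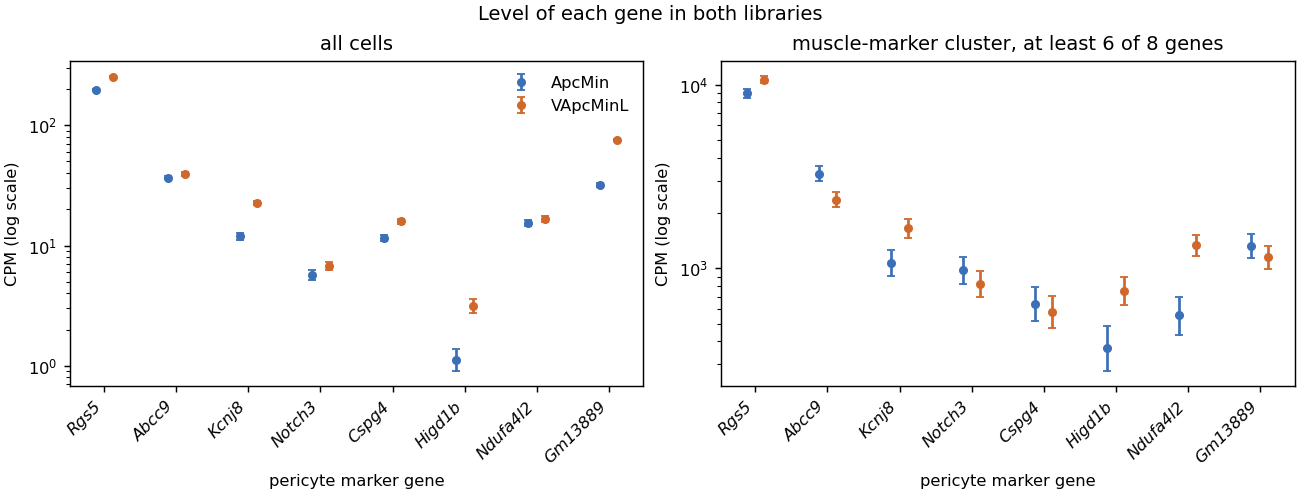
Level of each gene in CPM (log axes) in *ApcMin* (blue) and *VApcMinL* (orange), with exact 95% Poisson intervals that cover counting error only, over all cells (left) and in the 74 cells of the muscle-marker cluster with at least 6 genes (right). All 8 genes are higher in *VApcMinL* on the left, *Abcc9* and *Ndufa4l2* only slightly (1.07 and 1.08 times), and on the right *Higd1b* and *Ndufa4l2* stand apart most, while *Abcc9* is lower.

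The plot of both libraries shows that the order of the ratios changed between the sets of cells. *Gm13889*, past 2-fold over all cells, was at 1322 and 1148 CPM in the 74 cells. *Ndufa4l2*, level over all cells, was the most different in the 74. Beside these values, *Acta2* had 9 UMIs in the 30 *ApcMin* cells and 123 UMIs in the 44 *VApcMinL* cells, and *Des* was found in 33.3% and 77.3% of them, and their part in the differences of the marker genes was not tested.

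In the *Scg2* cluster, which was 2.17% of *ApcMin* and 1.73% of *VApcMinL* cells, *Rgs5* stood at 2926 and 2199 CPM (0.752, 0.722 to 0.783) and *Abcc9* at 651 and 542 CPM (0.833, 0.767 to 0.906). *Kcnj8* stood at 218 and 258 CPM (1.18, 1.04 to 1.35). With the cells thinned to 1000 UMIs the ratio of *Kcnj8* was 0.896 (0.553 to 1.44), and without the cells of highest doublet score it was 1.02 (0.874 to 1.19). Of the 6 genes with at least 20 UMIs in this cluster 3 were higher in *VApcMinL*, beside 51.6% of all genes tested. *Gm13889*, at 24.1 and 58.9 CPM, was the only one past 2-fold, beside 9.44% of all genes tested. It stood at 18.5 CPM in the empty droplets of *ApcMin* and 45.6 CPM in those of *VApcMinL*. The part of free RNA in this difference was not tested. *Notch3* and *Higd1b* had too few UMIs to compare, with 14 and 5 in all.

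Over 34 pairs of library and cluster at resolution 0.2, which share the 2 libraries and their depth, the mean log2(CPM + 1) of the 8 genes correlated best with that of *Tpm2* (Pearson r = 0.92), *Tagln* (0.92), *Cacna1c* (0.91), *Synpo2* (0.90), *Des* (0.90) and *Ednra* (0.89) among 14960 genes. *Palm2*, *9530026P05Rik*, *Rgs4* and *Pde4c* completed the first 10. Of the 8 themselves, *Abcc9* was the closest to their mean (0.93) and *Higd1b* the farthest (0.74). At the level of single cells, thinned to 1000 UMIs, the genes outside the list that set the cells with at least 6 genes apart were others. *Timp3*, an inhibitor of metalloproteinases, was found in 83.5% of them and 20.1% of the rest. *Ednrb*, an endothelin receptor, was found in 57.4% against 2.48%, *Pdgfrb* in 52.2% against 4.47% and *Rgs4* in 47.8% against 0.299%.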

How the data were processed

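The 2 droplet libraries were read as raw UMI counts, deposited by the authors as whole numbers for each gene and barcode, with empty droplets still among them and no scaling. The methods name Cell Ranger 2.1.1 and the mm10 genome, whereas the deposited count files name release 3.1.0. All 6794880 barcodes of each library (93203061 and 101609269 UMIs) were filtered at 1000 UMIs and 20% mitochondrial UMIs, which keeps more cells than the final sets of the study. The 8 genes and all gene lists were chosen with earlier results of these data known. Named genes are the 8, the lists around them, the 10 genes most like them over clusters with at least 20 cells and 100 UMIs, and the 15 that differ most in detection.

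Counts were log-normalised to 10000, and the libraries were integrated by canonical correlation and clustered in Seurat 5.3.0 (R 4.3.3; 20 principal components, 20 neighbours, Louvain), with the 8 genes left out of the variable genes. UMIs were summed per set of cells as CPM, with exact Poisson intervals. Shares have Clopper-Pearson intervals and ratios conditional binomial intervals. UMIs tag 3′ ends, so levels were not divided by length and were compared within a gene. Empty droplets were ranks 45000 to 90000. Doublets were kept. Scrublet in scanpy 1.11.5 marked 0 and 1 cells by its own threshold and so had not worked, and in an alternative the cells of highest score were left out at 0.8% per 1000 cells (461 and 591). Tables used pandas 2.3.3, numpy 2.4.6 and scipy 1.17.1 under Python 3.11.15, and plots matplotlib 3.10.9. Calculations were tested on simulated data. No p-values were computed, because each genotype has 1 library and cells are not replicates. RefSeq windows were matched for 5 of the 8 genes.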

Additional observations from a re-analysis of the deposited data

Results flagged for a closer look

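Barcodes that the filters left out also held the genes. Among barcodes with more than 20% mitochondrial UMIs, 4 of 251 in *ApcMin* and 15 of 996 in *VApcMinL* held at least 3 of the 8 genes, and 0 held 6 or more. Among barcodes with at least 300 but under 1000 UMIs, 8 of 4422 in *VApcMinL* held at least 3. These barcodes enter no comparison, and there were no control samples to read them against, so they were marked for exceeding what a count of 0 allows.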

How the results depend on the processing

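No paired analysis was possible because there is a single library of each genotype. The shares of cells, the *Pecam1*, endothelial and *Abcc9* shares, the counts of genes higher or past 2-fold, the median UMI ratios and each gene's ratio between libraries were recomputed with other limits on genes and depth, with cells thinned to 1000 UMIs, without the cells of highest doublet score, with 5 genes (without *Notch3*, *Cspg4* and *Gm13889*) and with the order-of-magnitude rule for calling cells (minimum 4721 and 6255 UMIs). Resolution 1.0 was tried for the cell classes alone, and cluster levels were not recomputed under the other settings. Of the values other than ratios of single genes, 95 stayed within their intervals (for counts, within 1.5 times) and 26 moved. Of the gene ratios, over all cells and in the 2 clusters, a set of alternatives chosen after seeing the data, 115 stayed within their intervals, 40 moved and 4 reversed, while *Higd1b* in the thinned *Scg2* cluster had 0 UMIs in *ApcMin* and gave no ratio. The 4 included *Abcc9* over all cells with at least 500 detected genes (0.943) and without the cells of highest score (0.984). The others were *Kcnj8* (0.896) and *Ndufa4l2* (0.554, from 6 and 3 UMIs, against 1.52 before thinning) in the thinned *Scg2* cluster. The limit of 6 genes was chosen after seeing the data. With thinned cells the cells with at least 6 genes numbered 7 and 14, and under the order-of-magnitude rule 22 and 32, since that rule drops shallow cells and the 74 muscle-marker cells had a median of 3787 UMIs. The share of those in *VApcMinL* with *Pecam1*, 24.7%, was then 56.3%, and was 13.8% without the cells of highest score and 0% with thinned cells. The share of cells with at least 3 genes and *Pecam1* in *VApcMinL* was 9.83% without the cells of highest score, 5.88% thinned and 15.9% under the order-of-magnitude rule. In *ApcMin* it was 4.37% with at least 4 genes and 0% thinned. At least 4 endothelial markers were found in *ApcMin* in 0.714% without the cells of highest score and 0% thinned. In *VApcMinL* they were found in 11.9% with 5 genes, 13.1% with at least 4 genes and 5.38% without the cells of highest score. The ratio of the shares with at least 3 genes was 1.39 with at least 2 genes, 1.02 with at least 500 detected genes, 1.41 thinned and 1.42 under the order-of-magnitude rule. *Abcc9* was found in 19.8% and 10.7% of cells with *Rgs5* in thinned cells, and in 15.9% in *VApcMinL* without the cells of highest score. The cluster with the muscle markers held 14.0% of the cells with at least 3 genes at resolution 0.2 and 11.1% at 1.0. With 5 genes, 5 of 5 were higher in *VApcMinL*. Of the 8, 6 were higher with at least 500 detected genes, 7 without the cells of highest score, 7 under the order-of-magnitude rule and 8 under the others. The ratio of median UMIs, above 1 in both libraries, was below 1 in *ApcMin* with at least 4 genes (0.774, 2 and 204 cells) and in *VApcMinL* with at least 2 genes (0.988). The causes were not tested. The ratio of median UMIs was not computed for thinned cells, which all have the same depth.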
